A study of Mus musculus with 6 samples.

Results

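Transcription of 10 core pluripotency transcription factors (Pou5f1, Nanog, Sall4, Klf4, Klf2, Klf5, Tbx3, Esrrb, Tfcp2l1 and Prdm14) was measured at single-base resolution in 2 mouse cell lines. The 10 genes were taken as a list, out of 55450 annotated genes, by name and not by a threshold on a measured value, with earlier results of these data known. The data are cap analysis of gene expression (CAGE), in which the first bases of capped RNAs are sequenced, so that each tag marks where an RNA started. RNA came from nuclei of R08, a mouse embryonic stem cell (mESC) line grown without feeder cells in serum and leukemia inhibitory factor (LIF), with 3 libraries, and of oli-neu, a neural line that stems from oligodendrocyte progenitors of the mouse (here mOPCs) and was grown with fibroblast growth factor, platelet-derived growth factor and thyroid hormones, also with 3 libraries. Each cell type was 1 line in 1 culture condition, and neither line was treated otherwise.

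These factors bind DNA and maintain the undifferentiated state of embryonic stem cells. Pou5f1 (also called Oct4) and Nanog, with their partner Sox2, occupy shared enhancers, including those of their own genes, and Sall4 works with them. Klf4, Klf2, Klf5, Tbx3, Esrrb, Tfcp2l1 and Prdm14 belong to the wider network of the naive state, in which several members act downstream of LIF. Sox2 and the KLF family are also used by other tissues, including the nervous system, whereas Pou5f1 and Nanog are largely restricted to early embryonic and germ cells.

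Libraries held from 16657021 to 40928704 tags. Tags were summed on the gene's strand within 500 bp of every annotated 5′ end and divided by the library total, giving CPM (tags in each 1000000 of the library). CAGE counts starts of RNAs, so levels of different genes are set side by side without a correction for length. The oligodendrocyte label of oli-neu was met by 7 of its 8 listed markers, all higher in mOPCs, led by Ptprz1 (900 ± 39.9 CPM), Cspg4 (576 ± 30.2 CPM) and Olig2 (425 ± 11.4 CPM, SD, n = 3), while Nkx2-2 had 0 tags in all 3 mOPC libraries and Pdgfra was low in both lines (8.33 ± 0.44 CPM in mOPCs, 5.51 ± 0.16 CPM in mESCs). Of 8 fibroblast markers, Postn was at 74.7 ± 0.48 CPM and Col1a1 at 11.1 ± 1.3 CPM in mOPCs, Lum, Twist2 and Col1a2 were at 0 there, and the list summed to between 83.8 and 87.2 CPM, against 3.06 to 3.20 CPM in mESCs, where Pdgfrb was at 0.778 CPM. Their part in the results was not tested. Differentiation markers summed to between 32.4 and 36.9 CPM in mESCs and to between 26.2 and 36.8 CPM in mOPCs, and of the 9 tested 7 were lower in mOPCs and 2, Nes and Pax6, higher. Mixl1, Gata6, Sox17, Foxa2 and Sox1 had 0 mOPC tags and were tested only through their mESC tags, so their direction only describes the list. The marker counts are to be read against all tested genes, of which 48.9% were called lower in mOPCs and 42.1% higher. The tag names in the files carry 1 label for the 3 mESC libraries and another for the 3 mOPC libraries, so any difference in preparation between the 2 sets cannot be told apart from cell type. No source says that the replicates of a line were separate cultures, so p-values measure the spread between these libraries, which may be technical. Nor can fewer transcribing cells be told apart from less RNA per cell.

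The bases around the main starts are given first because the positions and shapes described further on refer to them. RefSeq promoter windows (GRCm38.p6, the mm10 assembly) were matched by symbol for 6 of the 10 genes, and 5 of them cover the main mESC start. For Esrrb a window covers the far upstream 5′ end at which the few mOPC tags began. Each run below is written 5′ to 3′ on the gene's strand, with 60 bases before the main start, and capitals mark each base that held at least 10% of the tags within 50 bp of it (mESC tags, or mOPC tags for Esrrb).
Pou5f1 chr17:35505976-35506060 (+ strand): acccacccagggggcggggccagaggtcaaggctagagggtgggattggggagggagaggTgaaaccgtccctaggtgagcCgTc
Nanog chr6:122707534-122707614 (+ strand): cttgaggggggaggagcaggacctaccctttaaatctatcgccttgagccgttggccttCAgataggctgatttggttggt
Klf4 chr4:55532452-55532536 (- strand): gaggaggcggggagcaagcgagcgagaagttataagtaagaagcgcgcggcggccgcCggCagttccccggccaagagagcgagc
Klf2 chr8:72319001-72319085 (+ strand): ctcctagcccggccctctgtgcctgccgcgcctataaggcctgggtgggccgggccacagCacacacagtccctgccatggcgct
Tfcp2l1 chr1:118627884-118627968 (+ strand): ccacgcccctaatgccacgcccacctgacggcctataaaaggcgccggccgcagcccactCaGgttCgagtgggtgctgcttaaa
Esrrb, start used in mOPCs chr12:86421583-86421667 (+ strand): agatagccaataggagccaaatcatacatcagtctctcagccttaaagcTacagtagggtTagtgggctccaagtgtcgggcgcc

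Listed starts mostly fell on the pyrimidine of a pyrimidine-purine pair, 1 base before the purine. Over 6636 protein-coding genes with a covered main start, the base before the listed start and the listed base formed a pyrimidine-purine pair, the usual initiator of transcription, in 1.22%, and the listed base and the next one did so in 88.3% (CA in 37.1%). Among the 5 factors the second reading gave such a pair in 4 (CA in Klf4, Klf2 and Tfcp2l1, TG in Pou5f1), and Nanog was the exception, its listed base being the purine of the pair CA. Positions are reported as the files list them, without a correction of 1 base. The cause of the shift was not tested. The letters TATAA, searched on both strands after the sequences had been seen, began 28 bp before the main start in Klf2, 27 bp in Tfcp2l1 and 30 bp in Klf4 and lay in no window of the other 3 factors, while 24.9% of all 32851 promoter windows of 300 bases held them anywhere and 2.82% of the 6636 genes had them between 40 and 19 bp upstream of the main start. In the same windows the octamer ATGCAAA, bound by Oct4, was found in Nanog only, 180 bp before its main start and beside the SOX letters ACAATG at 172 bp, the 2 motifs being held by 4.63% and 12.6% of all windows. The SOX letters were also in windows of Pou5f1, 2613 bp after its main start, and of Esrrb, 108966 bp before its main mESC start. The GC box letters GGGNGNGG, read by KLF and SP proteins, were in all 6 factors with a window and in 49.5% of all windows. A factor could have more than 1 window (Esrrb matches lay 109089 and 48576 bp before its main mESC start). Counts of factors and shares of windows are therefore not like for like. A match is a description of letters and not of binding.

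In mESCs the 10 factors together held between 3048 and 3309 CPM, and in mOPCs between 24.1 and 32.0 CPM. All 10 passed the test as lower in mOPCs (edgeR's quasi-likelihood test with Benjamini-Hochberg adjustment below 0.05 over 18490 genes), beside 48.9% of all tested genes called in that direction. Their median log2 fold change (mOPC over mESC) was -11.56, while that of all tested genes was -0.19. All 10 also passed the filter on low counts, those without or nearly without mOPC tags through the mESC libraries, so the count and the median only describe the list. In mOPCs 4 factors had no tag at all at their 5′ ends, 2 had 1 to 3 tags in all libraries together, and 4 had more.

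The factors at the centre of the network had no detectable tags at their 5′ ends in mOPCs at this depth. Pou5f1, a POU domain factor, had 995, 1079 and 947 CPM in the 3 mESC libraries and 0 tags in each mOPC library. It was the highest of the 10, above 99.7% of tested protein-coding genes in mESCs, and at least 30617-fold higher in mESCs when 3 tags over the pooled mOPC libraries (0.0327 CPM) are taken as the limit of detection. Nanog, a homeodomain factor, had 121, 123 and 125 CPM in mESCs and 0 tags in each mOPC library, a difference of at least 3748-fold. Sall4, a zinc finger factor, had 113, 140 and 125 CPM in mESCs and again 0 tags in each mOPC library, at least 3732-fold higher in mESCs. Nanog and Sall4 overlapped in level across the mESC libraries. Inside the gene bodies the pooled mOPC libraries held 0 tags for Pou5f1, 2 for Nanog and 1 for Sall4, all of them intronic, so that over the body the Nanog ratio was 5672 with a 95% exact interval of 1570 to 46843. There were 2 annotated Nanog pseudogenes, which had no tag in any library.

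Tbx3 and Prdm14 were also at or near 0 in mOPCs. Tbx3, a repressor induced through LIF signalling, had 148, 145 and 156 CPM in mESCs and 0 tags in each mOPC library, at least 4561-fold higher in mESCs. Prdm14, which restrains the priming of stem cells towards differentiation, had 5.41, 6.12 and 5.26 CPM in mESCs and 0, 0 and 1 tag in mOPCs, a ratio of 508 with a 95% exact interval of 90.6 to 20100. Prdm14 lay far below the other 9, above only 27.2% of tested protein-coding genes, whereas each of the other 9 lay above at least 88.5% of them. Intervals and limits here and below cover counting error only, and reads were not counted by molecule.

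The 3 KLF factors, zinc finger proteins that bind GC-rich promoters, kept tags in mOPCs and accounted for 98.5% of the tags of all 10 factors there (Klf4 68.6%, Klf2 16.0%, Klf5 13.9%), against 33.3% in mESCs. Klf4 had 384, 334 and 366 CPM in mESCs and 23.2, 17.96 and 17.0 CPM in mOPCs (508, 518 and 696 tags). Its log2 fold change was -4.26 ± 0.11 (SE derived from the test's F statistic, as for edgeR values below, adjusted p = 7.77e-33 by edgeR). The lines were thus 19.6-fold apart, and 14.7% of tested protein-coding genes had a lower log2 fold change than Klf4. Klf2 had 579, 539 and 464 CPM in mESCs and 5.43, 5.03 and 3.35 CPM in mOPCs (119, 145 and 137 tags), a log2 fold change of -6.90 ± 0.15 (adjusted p = 1.88e-20 by edgeR) or 124-fold. Klf5 had 166, 155 and 172 CPM in mESCs and 3.10, 4.99 and 3.37 CPM in mOPCs (68, 144 and 138 tags), a log2 fold change of -5.45 ± 0.12 (adjusted p = 8.22e-38 by edgeR) or 43.2-fold. For none of the 3 did the ranges of the lines meet. Klf2 led the 3 in mESCs and Klf4 led them in mOPCs, where Klf2 and Klf5 overlapped.

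Esrrb and Tfcp2l1, an orphan nuclear receptor and a grainyhead-related factor that both act in LIF-dependent self-renewal, were strong in mESCs and nearly absent from mOPCs. Esrrb had 287, 240 and 228 CPM in mESCs and 0.274, 0.451 and 0.342 CPM in mOPCs (6, 13 and 14 tags). The lines were 726-fold apart, with a 95% exact interval of 517 to 1055. Its log2 fold change was -9.46 ± 0.16 by edgeR and -9.51 ± 0.27 by DESeq2 (SE). Esrrb passed the filter on low counts through the mESC libraries, so its direction only describes the list. Tfcp2l1 had 511, 462 and 459 CPM in mESCs and 1 tag in each mOPC library, a ratio of 14873 with a 95% exact interval of 5089 to 72123. Counted over the gene body Tfcp2l1 had 5, 5 and 16 mOPC tags and the ratio was 1176 (803 to 1801). Within 500 bp of annotated 5′ ends, Esrrb was the only factor outside the KLF family with more than 3 mOPC tags. In mESCs the order of levels ran Pou5f1, Klf2, Tfcp2l1, Klf4, Esrrb, Klf5, Tbx3, Sall4, Nanog and Prdm14, in which Klf2 overlapped Tfcp2l1, Klf5 overlapped Tbx3 and Sall4 overlapped Nanog, and all other neighbours were separated.

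**Figure D1:**
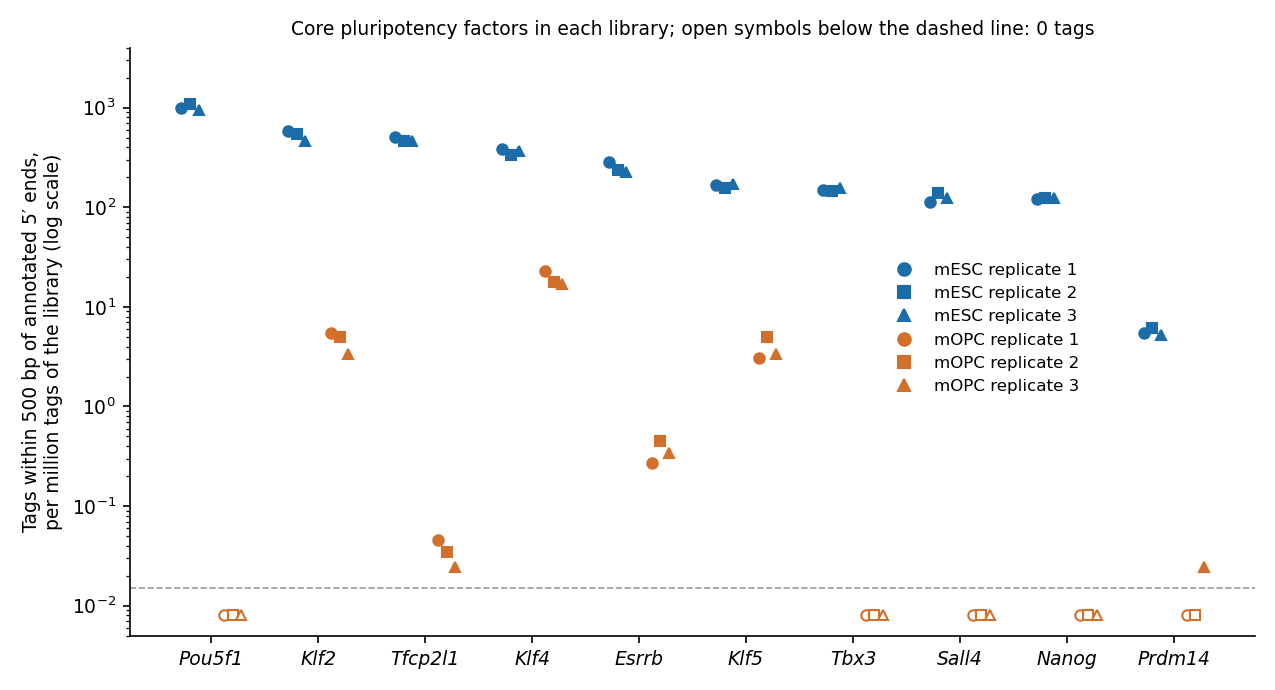
Tags within 500 bp of annotated 5′ ends in CPM (log axis) for the 10 factors, ordered by their mean in mESCs, with 1 point per library (blue, mESCs, orange, mOPCs) and libraries with 0 tags drawn as open symbols below the dashed line. Pou5f1 stands near 1007 CPM in mESCs and has only open symbols in mOPCs, and Klf4, Klf2 and Klf5 are the factors whose mOPC points lie above 1 CPM.

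How the starts were spread differed widely among the factors. Within 50 bp of its main position, Klf2 placed 81.7 ± 0.38% of its mESC tags on a single base (SD, n = 3), Nanog 57.8 ± 2.8%, Esrrb 53.6 ± 2.4% and Klf4 52.8 ± 2.0%. At the other end Pou5f1 placed 17.5 ± 1.2% on its main base and Prdm14 10.99 ± 3.2%. The median of 11892 protein-coding genes was 22.9% with quartiles of 16.8% and 33.1%, so that 7 of the factors lay above the upper quartile and Prdm14 below the lower. The middle 80% of tags spanned 2 bp in Nanog, 3 bp in Klf2, 4 bp in Klf4, 7 bp in Tfcp2l1 and 13 bp in Tbx3, 30 bp in Pou5f1, 31 bp in Klf5 and 33 bp in Esrrb, all below the median of 39 bp over those genes, and 48 bp in Sall4 and 63 bp in Prdm14, above it. In Pou5f1, the highest factor, 3 bases at 0, 21 and 23 bp from the main start held 17.8%, 17.0% and 11.3% of the pooled tags (the capitals of the Pou5f1 run). Klf4 instead used 2 bases 3 bp apart, the capitals of its run, with 53.4% and 42.1% of the pooled tags. Its main start lay 10 bp upstream of the annotated gene, and for this reason the Klf4 gene body held only 13.4, 14.4 and 12.4 CPM in mESCs.

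**Figure D2:**
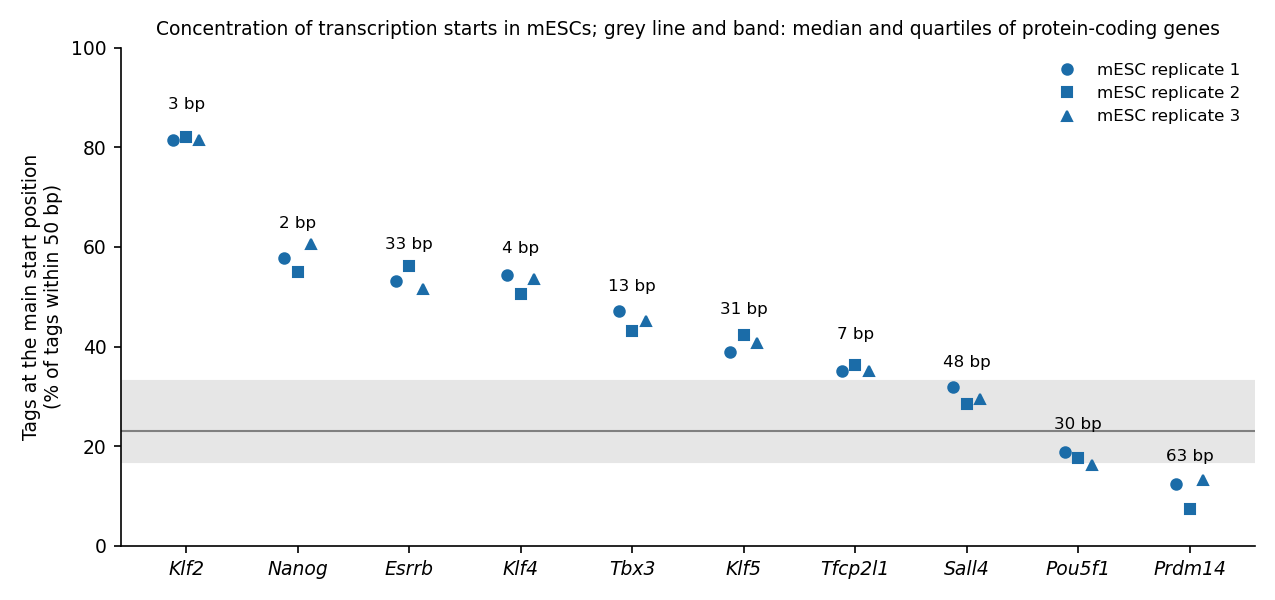
Share of tags within 50 bp that fell on the main start position in mESCs, in percent, with 1 point per library, and above each gene the span in bp of the middle 80% of pooled tags. The grey line and band give the median and quartiles of 11892 protein-coding genes, and Klf2 at 81.7% and Prdm14 at 10.99% mark the ends of the range.

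In the pooled mOPC libraries the 3 KLF genes had the same main base as in mESCs, although single mOPC libraries had more tags on a neighbouring base (mOPC replicate 2 for Klf4, replicates 1 and 3 for Klf5). Klf4 placed 54.3%, 50.6% and 53.6% of its mESC tags and 49.4%, 44.8% and 50.2% of its mOPC tags on that base. For Klf2 the shares were 81.5%, 82.1% and 81.4% in mESCs and 81.2%, 73.9% and 78.0% in mOPCs. Klf5 showed the widest gap, with 38.8%, 42.3% and 40.7% in mESCs and 17.9%, 25.4% and 19.5% in mOPCs. In mESCs 31 bp held the middle 80% of its tags, and in mOPCs 50 bp, where the window held 56, 126 and 128 tags. For each of the 3 genes all mESC libraries lay above all mOPC libraries, with a two-sided exact permutation p of 0.1 (adjusted 0.1 over the 3), the smallest that 3 libraries against 3 allow. At Klf5 the base 6 bp upstream of the main one held 10.9% of the pooled mESC tags and 17.7% of the pooled mOPC tags, while the base 3 bp upstream held 17.8% and 16.5%.

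**Figure D3:**
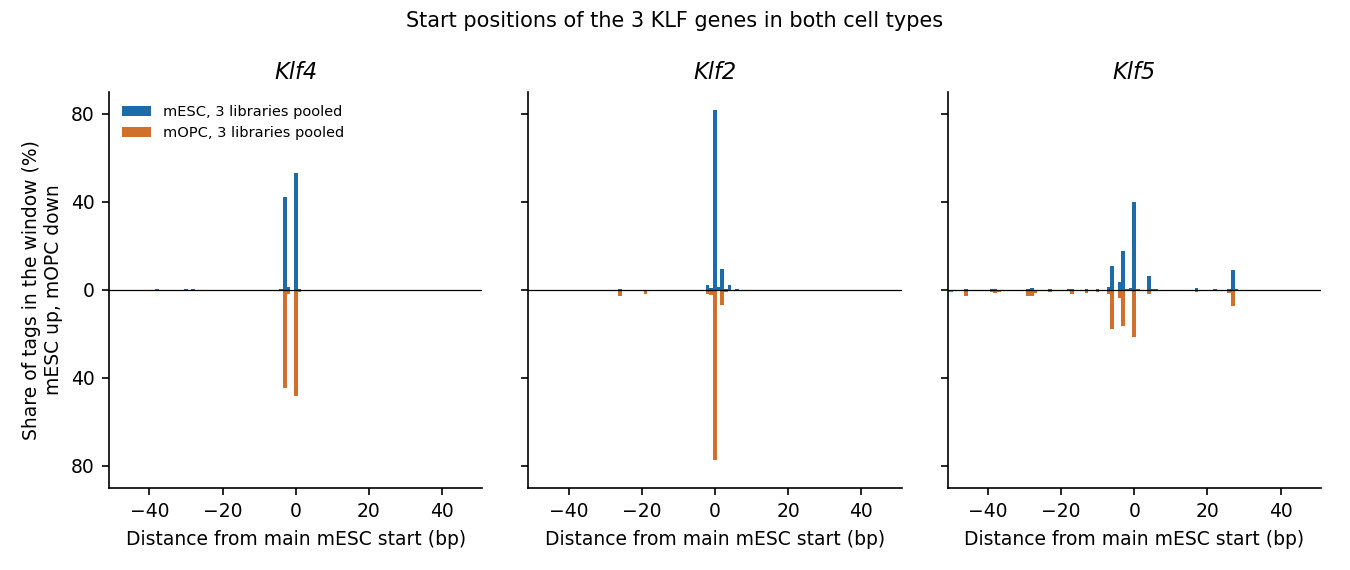
Share of tags (%) at each base from 50 bp upstream to 50 bp downstream of the main mESC start of Klf4, Klf2 and Klf5, with pooled mESC libraries upward in blue and pooled mOPC libraries downward in orange. Both lines share the main bases of Klf4 and Klf2, and the Klf5 main base holds 40.1% upward and 21.6% downward.

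In mESCs most tags of each factor but Tfcp2l1 lay nearest to 1 of its annotated 5′ ends. The shares below are by nearness and do not measure the use of a transcript where ends lie close together. The first Pou5f1 transcript (Pou5f1-201) took 99.7 ± 0.038% of the tags assigned to its nearest 5′ end, Klf4-201 took 98.8 ± 0.23%, Klf5-201 97.5 ± 0.70% and Nanog-201 95.9 ± 0.25%. Tbx3 and Sall4 were the most divided. Tbx3-201 took 88.0 ± 1.3% and the internal Tbx3-205 8.65 ± 1.1%. Sall4-205 took 69.8 ± 0.86%, the shared end of Sall4-201 and Sall4-203 13.6 ± 0.38%, Sall4-202 8.83 ± 0.60% and Sall4-206 7.21 ± 0.16%. The 2 Tfcp2l1 ends, 1 bp apart, were not separable. Nor were those of Nanog-202 and Nanog-201 (positions 122707565 and 122707568). The ends of Klf4-203 and Klf4-201 were also close (55532453 and 55532466).

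Esrrb used different 5′ ends in the 2 lines. In mESCs 98.8 ± 0.20% of its tags were assigned to Esrrb-206, which begins at chr12:86470117 within the gene, with 284, 236 and 225 CPM in the 3 libraries. No mOPC tag was assigned there, 0 of 33, which allows a share of up to 9.09%. The mOPC tags lay 48473 bp upstream, at the shared end of Esrrb-202 and Esrrb-203 (position 86421644), which held 31 of 33, or 93.9% with a 95% exact binomial interval of 79.8% to 99.3%. That upstream end was also used in mESCs, at 1.58, 2.04 and 1.79 CPM, more than the 0.274, 0.451 and 0.293 CPM of the mOPC libraries. The ranges did not meet, and the pooled ratio of mESCs to mOPCs was 5.15 with a 95% exact interval of 3.45 to 7.89. On its run above, the right-hand capital marks the most used mOPC base, with 4, 4 and 8 mOPC tags and 17, 8 and 8 mESC tags.

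**Figure D4:**
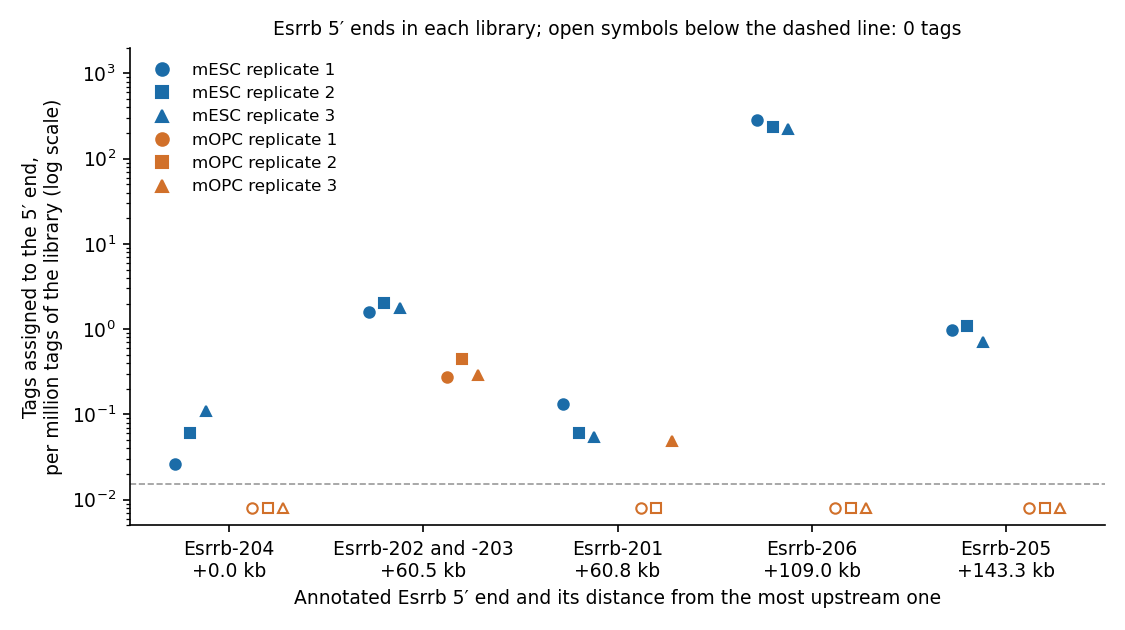
Tags assigned to each annotated Esrrb 5′ end in CPM (log axis), with 1 point per library, open symbols below the dashed line for 0 tags, and distances from the most upstream end under the names. Esrrb-206 stands between 225 and 284 CPM in mESCs and at 0 tags in mOPCs, and the shared end of Esrrb-202 and Esrrb-203 is the only end with tags in all 6 libraries.

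Start clusters, made by joining positions of at least 1 CPM in any library that lay within 20 bp of each other, gave 28 clusters for 9 of the factors and none for Prdm14. They entered almost entirely through the mESC libraries, 18 of them having no mOPC tag, so that their direction was set by this threshold and is given only as a description: all 28 were lower in mOPCs, as were 46.3% of 33813 tested clusters genome-wide. Klf2 had a minor cluster 71 bp upstream of its annotated end, at 31.5 ± 2.7 CPM in mESCs and with 0, 1 and 0 tags in mOPCs, and another 120 bp upstream at 8.81 ± 1.3 CPM with 3 mOPC tags in all. Its main cluster, at 472 ± 56 CPM in mESCs, kept 352 mOPC tags. The main clusters of Pou5f1 (95 bp wide, 980 ± 64 CPM) and Esrrb (58 bp wide, 234 ± 30 CPM) had none.

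Within the gene bodies, tags farther than 500 bp from any annotated 5′ end made up very different shares. In mESCs they were 0.609 ± 0.062% for Pou5f1, 1.25 ± 0.11% for Klf2 and 1.34 ± 0.47% for Nanog, but 38.8 ± 1.4% for Klf5, 66.6 ± 5.9% for Klf4 and 81.7 ± 2.4% for Prdm14, whose main starts all lie upstream of the annotated body (by 4, 10 and 76 bp). As a share of all tags of the gene, those upstream included, they were 12.0 ± 1.0% for Klf5, 2.43 ± 0.37% for Klf4 and 49.6 ± 1.7% for Prdm14. The median over 8864 protein-coding genes with at least 100 body tags in every library was 4.68% in mESCs and 8.19% in mOPCs. Prdm14 tags gathered in 37 bases of the coding part of exon 2 (chr1:13125688-13125724), with 119, 53 and 60 tags in the mESC libraries or 47.3 ± 0.46% of its body tags, and 0 in mOPCs. This is not a share of all Prdm14 tags, because the body leaves out starts upstream of it. Pooled mESC libraries held 489 Prdm14 body tags, 401 of them outside 5′ ends, and 404 tags within 500 bp of the 5′ end. The share outside 5′ ends could be compared between the lines for 5 factors. Klf4 (57.3 ± 12% in mOPCs), Klf5 (42.3 ± 8.4%) and Esrrb (18.1 ± 9.6%) overlapped between the lines, with two-sided exact permutation p values of 0.4, 0.5 and 0.5. For Klf4 the lines did not overlap (exact permutation p = 0.1) with windows of 100 or 1000 bp or with all tags of the gene as the denominator (2.43% in mESCs, 1.42% in mOPCs). Klf2 was at 0.490 ± 0.43% in mOPCs and Tfcp2l1 went from 10.8 ± 0.23% to all of its body tags, without overlap, each at the smallest possible exact permutation p of 0.1 (adjusted p = 0.25 over the 5). That Tfcp2l1 share rests on 5, 5 and 16 mOPC tags, of which 24 were intronic. Its main start also lies upstream of the annotated body, by 1 bp. As a share of all tags of the gene it was 6.90 ± 0.13% in mESCs and 86.9 ± 6.2% in mOPCs. The body also holds a small nuclear RNA gene on the same strand (Gm23497), whose part in these tags was not tested. The Klf2 share rests on 2 mOPC tags, and with windows of 1000 bp the lines overlapped (0.684% and 0.490%, exact permutation p = 0.9).

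The strand opposite the promoters, examined after the data had been seen, was higher in mOPCs for Klf4 and lower for the other factors tested. Opposite-strand tags within 500 bp of the annotated 5′ ends, outside other annotated genes, came to 114, 44 and 66 tags in mESCs (3.01, 2.64 and 3.58 CPM) and to 267, 376 and 526 tags in mOPCs (12.2, 13.0 and 12.9 CPM). They were thus higher in every mOPC library, with a log2 fold change of 1.44 ± 0.15 (adjusted p = 7.74e-21 by edgeR over 7506 genes, 38.8% of which were called higher), while sense tags of Klf4 were lower. With library totals in place of scaled ones the value was 2.04, where the median of all tested genes moved from -0.02 to 0.59. The 3 positions with the most of these tags over all libraries lay 241 to 261 bp upstream of the main sense start and were used in both lines. Per 100 sense tags there were 0.834 opposite ones in mESCs and 67.9 in mOPCs, a ratio of 81.4, which 17 of 8669 protein-coding genes exceeded and whose median was 1.33. The ratio contains the 19.6-fold lower sense tags of Klf4 in mOPCs. It was higher in mOPCs for Klf2 (0.552 and 10.97 per 100) and Klf5 (2.79 and 11.4 per 100) too, where both strands were lower. Of the other 7 factors tested, all were lower in mOPCs, beside 39.4% of tested genes called lower. Pou5f1, Nanog, Esrrb, Tfcp2l1 and Sall4 had 0 opposite-strand tags in each mOPC library. They passed the filter on low counts through the mESC libraries, so their direction only describes the list. Of the tags counted, Esrrb had the most opposite-strand ones in mESCs, 41.9, 47.1 and 51.8 CPM or 17.4 per 100 sense tags, with its 3 most used positions 61 to 93 bp upstream of the sense start, and 0 tags in each mOPC library. At Tbx3 and Sall4 opposite-strand genes (Tbx3os1 and Gm14261) cover the main starts, and tags inside them were left out. Their counts are therefore remainders and cannot be ranked against Esrrb. Klf2 went from 2.85, 2.46 and 3.74 CPM to 0.593, 0.624 and 0.318 CPM, and Klf5 from 4.88, 3.84 and 4.72 CPM to 0.593, 0.208 and 0.513 CPM.

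**Figure D5:**
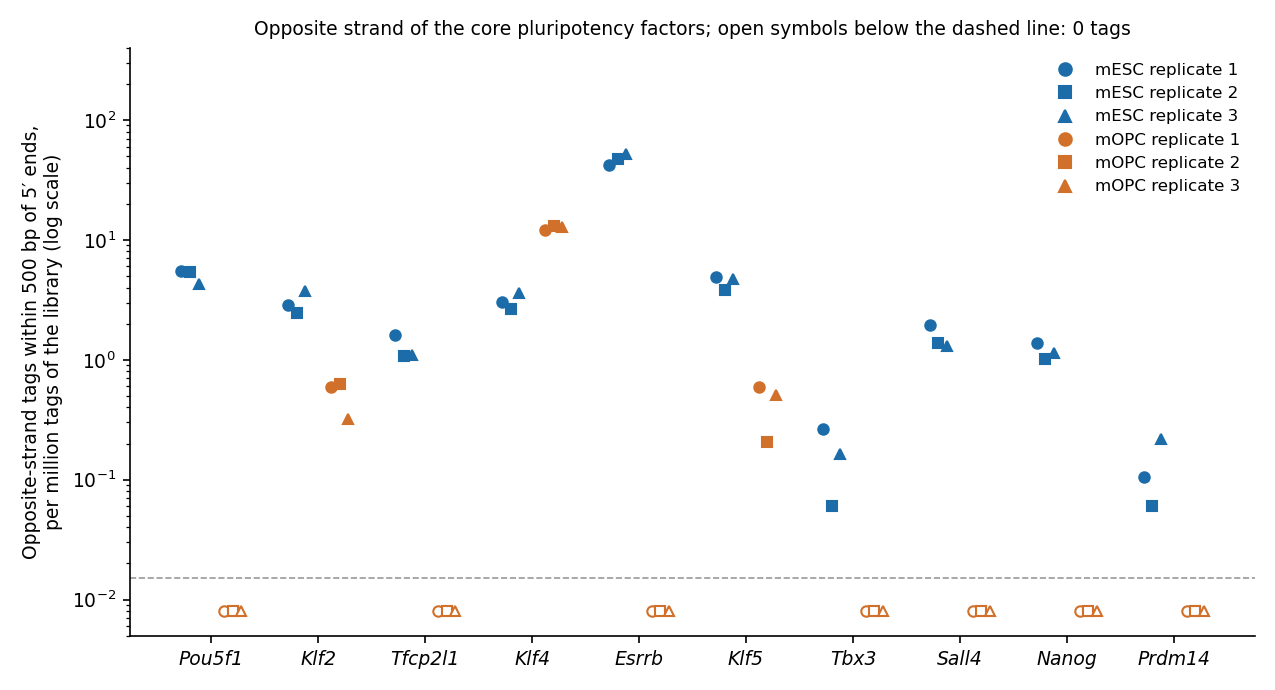
Opposite-strand tags within 500 bp of the 5′ ends of the 10 factors in CPM (log axis), in the order of the sense levels, with 1 point per library and open symbols below the dashed line for 0 tags. Klf4 is the only factor whose mOPC points (12.2 to 13.0 CPM) lie above its mESC points (2.64 to 3.58 CPM). For Tbx3 and Sall4, tags inside the opposite-strand genes Tbx3os1 and Gm14261 are not counted.

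Other genes of the network moved less evenly. Of all tested genes 48.9% were lower in mOPCs and 42.1% higher, and the lists that follow are to be read against these shares. Genes without or nearly without tags in 1 line passed the filter on low counts through the other line. Counts and medians of these lists therefore only describe them. Of 20 network partners, all tested, 16 were lower in mOPCs, 7 of them with 0 mOPC tags, and 3 were higher. Tcf7l1, a repressor of the Wnt pathway, was not called (23.6 ± 0.92 and 24.3 ± 1.3 CPM). Rif1 (796 ± 43 CPM in mESCs, 201 ± 7.6 CPM in mOPCs), Zfp42 (628 ± 14 CPM, 0 tags in mOPCs) and Utf1 (462 ± 46 CPM, 0 tags) had the highest levels. Sox2, the partner of Oct4 that neural progenitors also use, had 287 ± 24 CPM in mESCs and kept 23.3 ± 1.1 CPM in mOPCs, a log2 fold change of -3.64 ± 0.09 (adjusted p = 9.53e-40 by edgeR). The 3 that were higher in mOPCs were Myc (23.5 ± 1.8 and 364 ± 24 CPM), Smad1 (13.9 ± 0.60 and 55.9 ± 5.4 CPM) and Stat3, the effector of LIF (62.6 ± 5.4 and 124 ± 10 CPM). All 20 listed target genes were lower, beside the 48.9% of all tested genes, with a median log2 fold change of -12.31. This only describes the list, since 9 of the 20 had 0 mOPC tags and were tested through their mESC tags. The highest of the 20 were Dppa5a (1140 ± 121 CPM in mESCs, 0 tags in mOPCs), the DNA demethylase gene Tet1 (1031 ± 50 and 56.2 ± 1.8 CPM) and Jam2 (680 ± 10.0 and 95.6 ± 3.9 CPM).

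Of 32 paralogs of the factors that were tested, 16 were lower, 15 higher and 1 (Prdm2) not called, with a median log2 fold change of -0.12, close to the shares and the median of all tested genes. The highest were Klf9 (772 ± 70 CPM in mESCs, 145 ± 7.9 CPM in mOPCs), Klf3 (314 ± 23 and 161 ± 8.1 CPM) and Pou2f1 (319 ± 12 and 53.1 ± 2.8 CPM), all lower in mOPCs. Those that were higher in mOPCs were Klf6, Klf7, Klf11, Pou3f2, Pou3f3, Pou3f4, Esrra, Tfcp2, Ubp1, Grhl1, Tbx2, Sall2, Sall3, Prdm4 and Prdm15. Thus the POU gene with the highest level in mESCs was Pou5f1, while Pou3f3, a neural POU factor, went from 1.22 ± 0.30 to 89.2 ± 1.8 CPM. Within the Sall family Sall4 and Sall1 were lower in mOPCs and Sall2 rose from 1.26 ± 0.26 to 7.89 ± 1.1 CPM. Tfcp2, the relative of Tfcp2l1, rose from 12.5 ± 0.77 to 79.2 ± 5.1 CPM, and Tbx2 from 0.0200 to 2.96 ± 0.20 CPM. Klf7 went from 14.4 ± 1.8 to 40.2 ± 7.7 CPM, so that in mOPCs it stood above Klf4.

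Over the 6 libraries, the protein-coding genes nearest to each factor by the root mean square difference of log2(CPM + 0.1) were Dppa5a (0.14) and Zfp42 (0.48) for Pou5f1, Dsg2 and Fam169a (both 0.08) for Nanog, and Fgf4 (0.29) and Utf1 (0.31) for Tfcp2l1. For Sall4 they were Phlda2 (0.10) and Trh (0.11), for Tbx3 Uty (0.03) and Smc1b (0.07), and for Prdm14 Acss3 (0.05) and Arhgap30 (0.10). For factors with 0 mOPC tags the measure mainly matches mESC levels among genes also absent from mOPCs. Shared regulation was not tested. The factors with mOPC tags had as nearest genes Usp1 (0.16) and Alg13 (0.22) for Klf4, Zfp989 (0.41) and Gldc (0.43) for Klf2, Zfp984 (0.24) and Nxt2 (0.28) for Klf5, and Tceal8 (0.46) and Fblim1 (0.87) for Esrrb. Esrrb thus had the least close neighbour of the 10.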

How the data were processed

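CAGE libraries of nuclear RNA (3 of R08 mESCs, 3 of oli-neu mOPCs) were analysed from the count tables that the authors deposited, in which each row gives a 1 bp position, its strand and a raw count of tags. Per the study's methods, reads were trimmed and mapped to mm10 with bowtie, allowing mismatches and keeping unique alignments, and the most 5′ base of a tag was taken as its start. The submitters' processing notes name BWA 0.5.9 and CASAVA 1.8 instead, and which aligner made the files was not settled. Tags from exact copies are lost by unique mapping.

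Counts were summed per gene with GENCODE M21 (the study used another release) and tested with edgeR 4.0.16 in R 4.3.3 (quasi-likelihood, TMM scaling, edgeR's low-count filter, Benjamini-Hochberg adjustment), which tested 18490 genes. Simulated counts had 200 of 18490 genes changed by 2 on the log2 scale, with a biological coefficient of variation of 0.1. The fit recovered 190 of the 200 with 12 false calls. In the data 91.0% of tested genes were called, so the simulation does not show how the fit or TMM scaling behaves there. Same-numbered replicates of the 2 lines deviated together with r of 0.01, 0.07 and 0.02, so numbers were not taken as pairs. Each annotated 5′ end received the tags nearest to it. Exact permutation tests and intervals used scipy 1.17.1. Where a factor had 0 mOPC tags, folds were set against 3 tags over the pooled mOPC libraries. Alternatives were other windows, gene bodies, scalings, filters, thinning, DESeq2 1.42.0, a replicate block and leaving out libraries. All 10 factors are named. In the other lists the 3 genes highest over the 6 libraries and those against the direction of the majority are named. The factors and lists were chosen with earlier results of these data known.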

Additional observations from a re-analysis of the deposited data

Results flagged for a closer look

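Tags that no comparison above used lay between 500 bp and 10 kb upstream of the first annotated 5′ ends, on either strand and outside annotated genes, and differed between the lines for 9 of the 10 factors. In the pooled mESC libraries there were 641 such tags for Nanog, 575 for Klf2, 486 for Tbx3, 467 for Pou5f1, 235 for Sall4, 88 for Tfcp2l1, 76 for Prdm14 and 52 for Klf5, against 0 to 4 in the pooled mOPC libraries for each of them. Klf4 had 91, 43 and 50 tags in mESCs and 76, 109 and 130 tags (315 pooled) in mOPCs, a CPM ratio of mESCs to mOPCs of 0.734 with a 95% exact interval of 0.609 to 0.883. That ratio rests on library totals, on which the median log2 fold change of opposite-strand tags over all tested genes was 0.59, larger than the Klf4 difference, against -0.02 with TMM scaling. In all 9 the CPM ranges of the lines did not overlap on library totals. No share over all genes is at hand for these upstream tags, so the 9 only describe the list. Whether they are more than usual was not tested. The position with the most tags lay 890 bp upstream for Nanog (77 mESC tags), 1861 bp for Pou5f1 (24 mESC tags), 7526 bp for Klf2 (71 mESC tags) and 916 bp for Klf4 (20 mESC and 22 mOPC tags).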

How the results depend on the processing

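All 10 factors kept their direction and their call under each of the 15 alternatives to the gene test (150 of 150 values). For the factors outside the KLF family this only describes the list, because they passed the filter on low counts through the mESC libraries. The same holds for the replicate block below. Klf4 ranged from -4.96 (gene body tags) to -4.13 on the log2 scale, and leaving out libraries in turn gave from -4.36 to -4.17. Prdm14 moved from -8.52 to -10.12 without mOPC replicate 3, which held its only mOPC tag. Gene body tags moved Tfcp2l1 from -13.67 to -10.26 and Nanog from -14.73 to -12.30. Genes called ranged from 16699 to 17477 when libraries were left out, against 16832, and numbered 16603 with DESeq2 and 21147 of 33317 with every gene of at least 1 tag. With the replicate number as a block they numbered 16833, all 10 factors stayed called and the Klf4 opposite strand was at 1.43. The numbers share no stated batch, and mOPC replicate 3 deviated most like mESC replicate 1. Joining positions up to 50 bp gave 17 member clusters called lower in place of 28, fewer because clusters merge. Cluster counts describe, since their threshold was met through mESCs. The median share of body tags outside 5′ ends in mESCs, 11.6%, was 13.1% within 100 bp windows, 8.95% within 1000 bp and, with all tags of the gene as the denominator (chosen after seeing the data), 6.37%, each by construction of the window or denominator, and from 11.1% to 12.0% without single libraries. The Klf4 opposite strand, also examined after seeing the data, ranged from 1.37 to 1.55 without single libraries. Values under 3 tags are limited by depth.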
